A study of Mus musculus with 21 samples.

Results

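Empagliflozin (EMPA) and control diet (CD) were compared in the left ventricle of male mice that carry the R403Q myosin mutation. The comparison comprised 11 of the 21 mice sequenced, namely 4 R403Q-EMPA and 7 R403Q-CD mice, chosen by the genotype and diet in the sample titles. All were heterozygous for the mutation, which the labels write as Myh6+/R404Q (R403Q), on the inbred 129S6/SvEv background. They started their diets at 9 to 10 weeks and were 12 weeks old, and the diets differed only in EMPA, added at 0.15 mg/g of diet or about 15 mg/kg body weight. The paper states that the hearts for RNA sequencing were taken after 2 weeks on the diets, whereas the deposited label gives 16 weeks of treatment. The other 10 mice were wild-type (5 WT-CD and 5 WT-EMPA) of the same strain, sex, tissue, age and diets. The 5 WT-CD mice entered the fit behind the R403Q p-values, where they helped to estimate the spread between mice, and both wild-type groups gave the values of the same diets without the mutation. The hour of the day at which hearts were taken and the feeding state at that time are not given in the sources used here.

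R403Q is a missense mutation of α-myosin heavy chain, the main motor protein of the adult mouse heart, and the corresponding human mutation causes hypertrophic cardiomyopathy, in which the ventricle thickens, relaxes poorly and uses more energy for each contraction. EMPA inhibits SGLT2, the sodium-glucose cotransporter of the kidney tubule. Glucose is then lost in the urine, insulin is lower and ketone bodies are higher, and the body uses more fat as fuel. In the heart, fatty acids switch on their own oxidation through the receptor PPARα, oxysterols act on cholesterol export and lipid synthesis through the receptor LXR, and feeding times help to set the circadian clock.

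Mice of both diets never shared a cage. By the mouse numbers in the labels, the R403Q-CD mice came from 4 cages and the R403Q-EMPA mice from 2, replicates 1 and 2 from cage 68692 and replicates 3 and 4 from cage 68695. All WT-EMPA mice came from 3 cages, 2 of them these same ones, so diet and cage cannot be told apart in either genotype. R403Q-CD replicate 2 stood apart from the others. Like replicate 1, it was the only R403Q-CD mouse of its cage. On the first principal component of the 11 mice, which held 48.4% of the variance, it scored 51.3, and the other 10 mice lay between -16.3 and 17.3. Its median Spearman correlation with its own group was 0.9735, against 0.9877 to 0.9931 for the others, and its 10 most abundant genes took 10.4% of its counts instead of 11.9 to 13.5%. Of 5 markers of atrial muscle 4 were also highest in this mouse, and the fifth, Bmp10, had 0 counts there. Values without it are therefore given for each gene list and for some single genes. Depth was similar in both groups, with 27348777 to 43539684 counts (median 31170736) in R403Q-CD and 23491535 to 35855534 (median 31487884) in R403Q-EMPA, so that 3 counts corresponded to between 0.0689 and 0.128 CPM (read counts scaled to a common library size with TMM), a limit that covers counting error only.

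The defining genes of heart muscle were abundant in every mouse. The summed CPM of 6 cardiomyocyte markers (Myh6, Tnnt2, Tnni3, Actc1, Ryr2 and Pln) was 68100 to 77700 in R403Q-EMPA and 64900 to 81800 in R403Q-CD, apart from replicate 2 with 50300. Myh6 itself, the gene that carries the mutation, was at 31800, 33850, 33370 and 41320 CPM in R403Q-EMPA replicates 1 to 4. In R403Q-CD it was lowest in replicate 2 at 17670 CPM, with a median of 36170 and a maximum of 41140. The groups overlapped, and the log2 fold change of EMPA against CD was 0.08 (SE 0.18) with all mice and -0.03 without R403Q-CD replicate 2. In bulk tissue, fewer cells of a type and less RNA per cell cannot be told apart.

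Expression was tested in 17025 genes with edgeR's quasi-likelihood test on counts scaled by TMM, with Benjamini-Hochberg adjustment. Between R403Q-EMPA and R403Q-CD, 0 genes (0%) passed an adjusted p of 0.05, and the smallest adjusted p, 0.0916, was reached by 4 genes. An adjusted p under 0.2 was reached by 146 genes. Without R403Q-CD replicate 2 the genes Ctsc and Slc17a7 passed, without replicate 6 Tmem64 did, and with the EMPA mice of cage 68695 alone Srebf1 and Man1c1 did. At an unadjusted p under 0.05 there were 2123 genes, of which 1148 (6.74% of all tested) were higher and 975 (5.73%) lower on EMPA. DESeq2's Wald test, used as the alternative, passed 142 genes at an adjusted p under 0.05, with 76 (0.446%) higher and 66 (0.388%) lower, and gave 1984 genes no adjusted p. In 162 genes (0.952%) all 4 EMPA mice lay above all 7 CD mice, and in 114 (0.67%) all 4 lay below. Of the 142 DESeq2 genes, 95 showed such a separation. Differences were small, since the median size of the edgeR log2 fold change over the 142 genes was 0.48, where the median SE over all tested genes was 0.13. TMM scaling centres the differences of all genes near 0, with 8376 genes higher, 8649 lower and their median at -0.0035 on the log2 scale. With scaling to library size alone 46.7% of the genes at an unadjusted p under 0.05 were higher, instead of 54.1%. The values with TMM are the background for the gene groups described below, and single genes are described by their values since none passed the edgeR threshold.

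The genes with the smallest p included a regulator of lipid synthesis, interferon-inducible GTPases, a survival factor and a repressor of the clock. Positions are those of the GRCm38 build. Tmem64, which encodes a membrane protein of the endoplasmic reticulum (chromosome 4, 15265831 to 15286753), was at 60.6, 64.1, 61.9 and 59.2 CPM in R403Q-EMPA replicates 1 to 4 and between 44.8 and 54.7 CPM (median 47.8) in R403Q-CD. Every EMPA mouse exceeded every CD mouse, and the log2 fold change was 0.35 (SE 0.056, adjusted p = 0.0916). Gbp10 (chromosome 5, 105215699 to 105239533) encodes a guanylate-binding protein, a GTPase induced by interferon-γ that acts in defence within cells. It measured 6.14, 5.25, 7.17 and 5.01 CPM on EMPA and 1.09 to 2.6 CPM (median 1.51) on CD, and its log2 fold change was 1.79 (SE 0.30, adjusted p = 0.0916). The groups lay far apart, and its neighbour and close relative Gbp6 (chromosome 5, 105270702 to 105293698) showed the same separation, with 52.6 to 77.9 CPM on EMPA, 29.1 to 44.3 CPM on CD and a difference of 0.79 on the log2 scale (SE 0.15, adjusted p = 0.113). Reads of such similar genes may be assigned to the wrong copy, so the division between both genes is uncertain.

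Srebf1 (chromosome 11, 60199089 to 60222581) encodes SREBP1, the factor that drives fatty acid synthesis. Its CPM was 29.8, 30.0, 39.1 and 34.5 in the EMPA mice and 22.7 to 27.5 (median 24.2) in the CD mice. Again no value overlapped, and the log2 fold change was 0.45 (SE 0.077, adjusted p = 0.0916). Bcl2l1 (chromosome 2, 152780668 to 152831728), which encodes the anti-apoptotic protein Bcl-xL, ran the other way, at 79.1, 82.6, 65.6 and 84.7 CPM on EMPA against 96.7 to 145 CPM (median 118) on CD. Its log2 fold change was -0.59 (SE 0.10, adjusted p = 0.0916), and the lowest CD mouse was above the highest EMPA mouse.

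The 10 higher and 10 lower genes with the smallest p had adjusted p-values up to 0.118 in edgeR, and in 18 of the 20 the groups did not overlap. All 20 also had a DESeq2 adjusted p under 0.05. Besides those above, the higher genes included Tmem47, Acsl3, Efnb1, Man1c1 and Btg1, with log2 fold changes from 0.37 (Efnb1, a membrane-bound ephrin ligand) to 0.54 (Acsl3). Acsl3, which activates long-chain fatty acids and helps to form lipid droplets, was at 7.74 ± 1.01 CPM (SD, n = 7) on CD and 11.3 ± 0.995 CPM (SD, n = 4) on EMPA. The other lower genes were Arrdc2, Trp53inp1, Slc10a6, Prrx1, Zfyve16, Ciart, Nr4a3, Col22a1 and Hspb8, with log2 fold changes from -0.25 (Zfyve16, an endosomal adaptor protein) to -1.45 (Nr4a3). Trp53inp1, a p53-induced stress gene, was at 61.9 ± 11 CPM (SD, n = 7) on CD and 37.2 ± 3.55 CPM (SD, n = 4) on EMPA. Hspb8, a small heat shock protein that helps to clear misfolded proteins in muscle, was at 366 ± 21.6 CPM (SD, n = 7) on CD and 296 ± 10.8 CPM (SD, n = 4) on EMPA.

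Nr4a3 encodes an orphan nuclear receptor that is induced within minutes by many signals. It was at 4.12, 5.33, 5.24 and 5.18 CPM in the EMPA mice, below each of the CD mice, which ranged from 5.68 to 21.5 CPM (median 15.3). The log2 fold change was -1.45 (SE 0.31, adjusted p = 0.117). The CD mice were spread widely, and the lowest of them lay close to the EMPA mice.

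**Figure D1:**
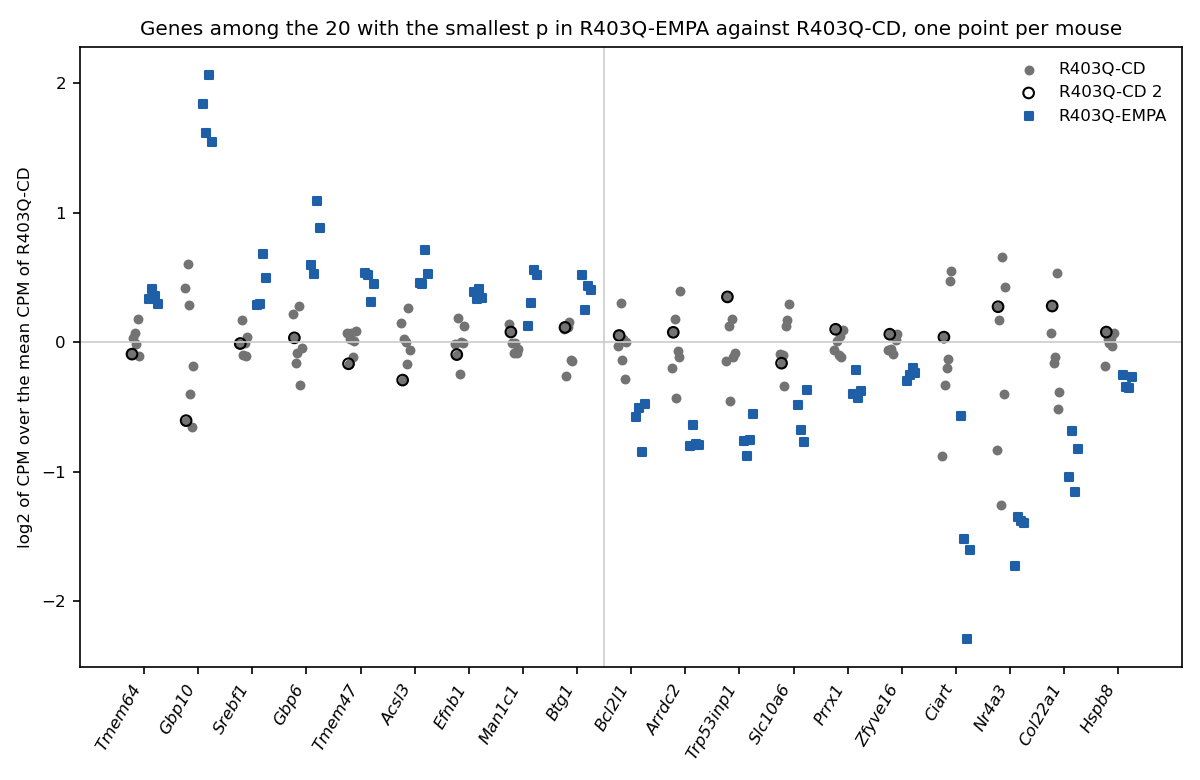
Genes among the 10 higher (left) and 10 lower (right) on EMPA with the smallest p. Each point is 1 mouse, placed by its log2 CPM relative to the mean CPM of the R403Q-CD mice, and R403Q-CD replicate 2 is ringed; the points of both diets overlap in Man1c1 and Ciart and in no other gene shown, and the widest distance is that of Gbp10 (log2 fold change 1.79).

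Among genes without overlap, 10 were more than 2-fold higher and 14 more than 2-fold lower, and of those with a mean of at least 1 CPM and an established symbol 3 were higher and 6 lower. The higher were Gbp10 and the lipid genes Acot1 and Angptl4, described below. The lower were Nr4a3, the sulphate transporter Slc13a4, the growth factor Gdf10, the homeobox factor Alx4, the leucine-rich repeat gene Lrrc75b and Pcbd1, which recycles the cofactor tetrahydrobiopterin (1.93 CPM on CD and 0.917 CPM on EMPA as group means). Slc13a4 differed by -1.69 (SE 0.55, adjusted p = 0.261) on the log2 scale, and it was at 7.57 CPM in R403Q-CD replicate 2 and 6.26 CPM in replicate 5, whereas its CD median was 2.07 CPM. Gdf10, a member of the TGF-β superfamily, was at 0.524 to 2.04 CPM on EMPA and 2.58 to 7.65 CPM on CD, which made -1.57 (SE 0.42, adjusted p = 0.187) on the log2 scale.

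The circadian clock contributed some of the largest single differences. In this loop CLOCK pairs with ARNTL (BMAL1) or NPAS2 on E-boxes and switches on its own repressors, the PER and CRY proteins, CIART and the nuclear receptors NR1D1 and NR1D2 (REV-ERB), which in turn shut off Arntl through ROR elements, while DBP and its relatives act on D-boxes. The promoters of an activator (Arntl) and of 3 repressors (Ciart, Per1 and Per3) are printed to show where each kind of element lies in genes whose values follow. The sequences are from RefSeq (GRCm38.p6), run from 250 bases before to 50 bases after the transcription start on the coding strand, and carry in capitals the matches to the E-box CACGTG, the D-box TTATGTAA or the ROR core TAGGTCA, searched on both strands.

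Ciart, chr3:95882179-95882478, minus strand: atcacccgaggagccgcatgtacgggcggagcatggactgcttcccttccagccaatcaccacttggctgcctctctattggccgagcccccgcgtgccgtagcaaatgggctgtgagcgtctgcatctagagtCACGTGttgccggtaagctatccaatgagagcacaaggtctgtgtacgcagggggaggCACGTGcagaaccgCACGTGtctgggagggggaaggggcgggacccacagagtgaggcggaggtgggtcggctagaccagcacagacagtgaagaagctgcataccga
Per1, chr11:69098699-69098998, plus strand: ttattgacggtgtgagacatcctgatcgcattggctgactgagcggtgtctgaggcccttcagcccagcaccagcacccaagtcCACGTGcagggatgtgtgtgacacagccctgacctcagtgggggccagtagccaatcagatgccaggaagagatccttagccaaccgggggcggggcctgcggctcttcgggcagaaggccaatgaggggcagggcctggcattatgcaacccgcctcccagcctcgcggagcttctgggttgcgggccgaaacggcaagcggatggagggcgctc
Per3, chr4:151044616-151044915, minus strand: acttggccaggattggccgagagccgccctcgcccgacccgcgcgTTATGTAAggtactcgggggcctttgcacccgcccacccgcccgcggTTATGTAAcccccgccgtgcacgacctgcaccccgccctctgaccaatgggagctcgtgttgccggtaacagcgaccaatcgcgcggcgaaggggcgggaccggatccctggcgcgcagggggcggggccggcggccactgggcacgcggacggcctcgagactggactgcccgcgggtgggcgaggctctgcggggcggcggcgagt
Arntl, chr7:113207261-113207560, plus strand: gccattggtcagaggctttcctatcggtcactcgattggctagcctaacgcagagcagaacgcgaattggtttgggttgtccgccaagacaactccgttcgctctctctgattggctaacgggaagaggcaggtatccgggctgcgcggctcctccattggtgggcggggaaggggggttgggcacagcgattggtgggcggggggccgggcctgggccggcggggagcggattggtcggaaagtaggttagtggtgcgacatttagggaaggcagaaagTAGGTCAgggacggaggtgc

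Of the 19 clock genes, 16 could be matched to a promoter, with 21 promoters in all. An E-box stood in 6 promoters of 5 genes (Ciart, Per1, Cry1, Bhlhe41 and Tef, with 3 E-boxes in that of Ciart), a D-box in 1 promoter (Per3, with 2) and the ROR core in 2 promoters of 2 genes, Arntl and Nfil3. Among all 32851 promoters of the table, 7.15% held the E-box, 0.938% the D-box and 2.61% the ROR core. These matches describe the letters in the windows and do not show that a factor was bound.

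All 5 activators of the clock were higher on EMPA, 3 of them at an unadjusted p under 0.05, and 8 of the 10 repressors were lower, 7 of them at that level. Over all 19 genes 4 were higher and 9 lower at an unadjusted p under 0.05, and the median was -0.28 on the log2 scale, or -0.27 without R403Q-CD replicate 2. Arntl was at 3.38 and 4.35 CPM in the EMPA mice of cage 68692 and at 17.2 and 12.9 CPM in those of cage 68695. The CD mice ranged from 1.28 to 6.87 CPM (median 2.48), so that only the mice of cage 68695 stood above them. The log2 fold change was 1.61 (SE 0.47, adjusted p = 0.23). Npas2, the partner that can replace CLOCK, was at 5.88, 6.28, 7.66 and 8.39 CPM on EMPA and 2.38 to 5.77 CPM (median 5.05) on CD without overlap, with a log2 fold change of 0.56 (SE 0.20).

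The repressors showed the reverse. Nr1d1 was at 23.8, 25.1, 21 and 25.6 CPM on EMPA and at 26.7 to 66.5 CPM (median 38.6) on CD. The EMPA mice lay together below the whole CD range, and the log2 fold change was -0.85 (SE 0.24, adjusted p = 0.229). Ciart was at 7.53, 3.91, 2.29 and 3.68 CPM against 6.08 to 16.4 CPM (median 10.2), where 1 EMPA mouse lay within the CD range, and the log2 fold change was -1.38 (SE 0.29, adjusted p = 0.117). Per2 (log2 fold change -0.53, SE 0.15), Per3 (-0.42, SE 0.16) and Per1 (-0.32, SE 0.10) overlapped between diets. Dbp, the output factor that drives many metabolic genes, was at 66.1 and 57.5 CPM in cage 68692 and 23.2 and 29.8 CPM in cage 68695, against 55.6 to 124 CPM (median 97.5) on CD, with a log2 fold change of -1.03 (SE 0.30). Nfil3, which opposes DBP at D-boxes, was higher, with a log2 fold change of 0.42 (SE 0.16).

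The clock genes differed between the EMPA cages. With the EMPA mice of cage 68695 alone, 13 of the 19 genes had an unadjusted p under 0.05, and with those of cage 68692 alone 3 did, where the numbers over all tested genes were 2340 and 878. Arntl had a log2 fold change of 2.28 with cage 68695 and 0.32 with cage 68692, Dbp -1.77 and -0.55, and Ciart -1.93 and -0.98. Nr1d1 was nearly the same with either cage, at -0.89 and -0.82. The part of the sampling time in these differences was not tested.

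**Figure D2:**
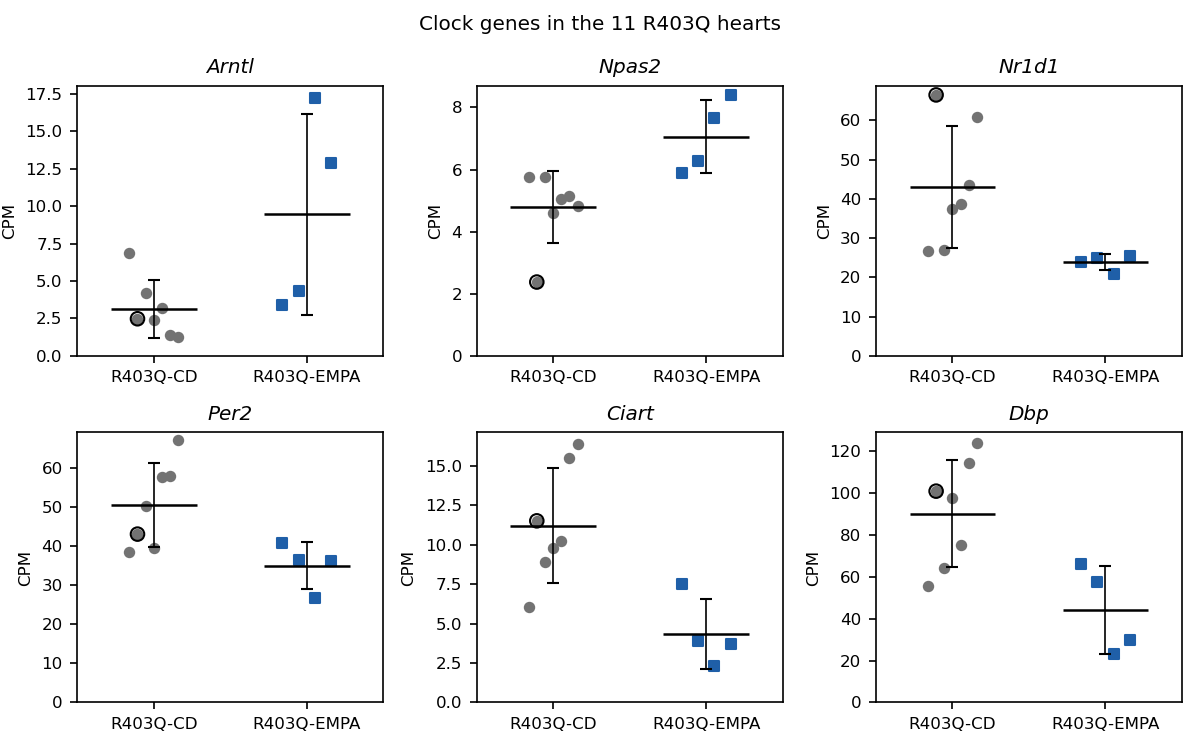
CPM of 6 clock genes in the 7 R403Q-CD and 4 R403Q-EMPA mice. Each point is 1 mouse, the line is the mean and the bars the SD, with R403Q-CD replicate 2 ringed; Arntl and Npas2 are higher and Nr1d1, Per2, Ciart and Dbp lower on EMPA, and the Arntl values of the EMPA mice range from 3.38 to 17.2 CPM.

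Genes of fatty acid use lay on one side. All 23 genes of mitochondrial fatty acid oxidation had a higher mean on EMPA, 5 of them at an unadjusted p under 0.05, with a median log2 fold change of 0.25. Without R403Q-CD replicate 2, in which these genes were low, 22 of the 23 were higher, 3 of them at that level, and the median was 0.16. Members at that level took up or activated fatty acids (Cd36, Fabp3 and Slc27a1) or belonged to β-oxidation (Acadl and Eci1), and no member separated the diets. Slc27a1, a fatty acid transporter, had 262 ± 25.9 CPM (SD, n = 4) on EMPA and 198 ± 50.0 CPM (SD, n = 7) on CD, that is 0.40 (SE 0.17, adjusted p = 0.357) on the log2 scale. By cage, 1 of the 23 genes had an unadjusted p under 0.05 with the EMPA mice of cage 68695 alone (median 0.13), and with those of cage 68692 alone 5 did (median 0.32). The carnitine shuttle genes Cpt1b and Cpt2 had log2 fold changes of 0.29 (SE 0.14) and 0.23 (SE 0.13), with unadjusted p above 0.05.

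PPARα targets were further apart. Of 11 targets all had a higher mean on EMPA, 9 at an unadjusted p under 0.05, with a median log2 fold change of 0.66, and in 5 the groups did not overlap. With the regulators and lipid droplet genes, 12 of 23 genes were higher and 1 lower at that level (median 0.34, or 0.26 without R403Q-CD replicate 2). Acot1 (chromosome 12, 84009490 to 84018371), a thioesterase that splits long-chain acyl-CoA, was at 31.7, 28.5, 39.8 and 36.1 CPM on EMPA and at 4.13 to 21.8 CPM (median 11.9) on CD. Every EMPA mouse was above every CD mouse, and the log2 fold change was 1.51 (SE 0.33, edgeR adjusted p = 0.12, DESeq2 adjusted p = 0.0156). Its mitochondrial relative Acot2, a neighbour on the same chromosome whose reads are partly alike, was at 116, 134, 124 and 119 CPM against 43.1 to 92.3 CPM (median 76.1). It was also without overlap, with a log2 fold change of 0.75 (SE 0.18, DESeq2 adjusted p = 0.0124).

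Angptl4, a secreted inhibitor of lipoprotein lipase that fatty acids induce, was at 42.1, 59.3, 52.3 and 45.8 CPM on EMPA and 4.90 to 29.3 CPM (median 19.8) on CD. The separation was complete, and the log2 fold change was 1.37 (SE 0.36, adjusted p = 0.184). Ucp3, a mitochondrial carrier, had a log2 fold change of 0.95 (SE 0.30) without overlap. Pdk4, the kinase that shuts off pyruvate dehydrogenase when fat is burnt, was at 2826, 3592, 4432 and 5014 CPM on EMPA and 648 to 3159 CPM (median 1448) on CD. Its log2 fold change was 1.12 (SE 0.37, adjusted p = 0.269), and the lowest EMPA mouse lay inside the CD range. Among the lipid droplet genes Plin2, the droplet coat protein, had a log2 fold change of 0.34 (SE 0.11) and Dgat1, an enzyme of triglyceride synthesis, of -0.17 (SE 0.061). With the EMPA mice of cage 68695 or of cage 68692 alone, 11 and 8 of the 23 genes had an unadjusted p under 0.05, and the log2 fold change of Acot1 was 1.66 and 1.33.

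Among LXR and lipogenic genes 3 of 4 regulators had higher means on EMPA, 2 of them at an unadjusted p under 0.05, and 6 of 13 lipogenic genes were higher and 7 lower. Of 20 genes, 7 were higher and 2 lower at an unadjusted p under 0.05, the median log2 fold change was 0.07 (7, 2 and 0.05 without R403Q-CD replicate 2), and 3 had a DESeq2 adjusted p under 0.05, namely Srebf1, Nr1h3 and Abca1. Nr1h3, which encodes LXRα, was at 20.7, 21.2, 24.8 and 22.7 CPM on EMPA and 14.1 to 20.1 CPM (median 16.2) on CD, without overlap, and its log2 fold change was 0.42 (SE 0.095, adjusted p = 0.121). Abca1, the pump that loads cholesterol onto HDL, was at 63.4, 59.2, 82.6 and 81.2 CPM against 43.0 to 63.6 CPM (median 47.7). The highest CD mouse lay just above the lower EMPA pair, and the log2 fold change was 0.52 (SE 0.11, DESeq2 adjusted p = 0.00738). It was 0.72 with the EMPA mice of cage 68695 alone and 0.30 with those of cage 68692.

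Scd1, the desaturase that makes oleate and is a target of SREBP1, had the opposite sign to Srebf1. It was at 53.1, 25.3, 26.3 and 22.1 CPM on EMPA and 35.2 to 146 CPM (median 80.3) on CD, with a log2 fold change of -1.44 (SE 0.46), while its rare heart relative Scd4 had one of 0.97 (SE 0.36). Fasn, fatty acid synthase, had a log2 fold change of -0.41 (SE 0.18), and Acacb, the acetyl-CoA carboxylase that restrains the carnitine shuttle, one of 0.47 (SE 0.18). Cholesterol synthesis under SREBP2 showed no common direction, with 10 of 25 genes higher and 15 lower, 1 and 2 of them at an unadjusted p under 0.05 and their median at -0.03 on the log2 scale. There were 2 and 2 at that level, with a median of -0.01, without R403Q-CD replicate 2. Insig1, which holds SREBPs in the endoplasmic reticulum, had a log2 fold change of 0.55 (SE 0.19), and Sqle, an enzyme of cholesterol synthesis, one of -1.04 (SE 0.35), or -0.71 without R403Q-CD replicate 2.

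Other fuel genes were near the background. Of 24 genes of branched-chain amino acid breakdown, 20 had a higher mean on EMPA and 0 had an unadjusted p under 0.05, and the median log2 fold change of 0.11 became 0.02 without R403Q-CD replicate 2. Without that mouse 1 of them was higher and 1 lower at that level. Ppm1k, the phosphatase that activates this pathway, had a log2 fold change of 0.34 (SE 0.18), or 0.23 without that mouse, and Klf15, its transcriptional activator, of -0.03 (SE 0.092). For pyruvate dehydrogenase and the TCA cycle 23 of 27 genes were higher with all mice but 9 of 27 without R403Q-CD replicate 2, and the median went from 0.03 to -0.04. Only Pdp2, a phosphatase that reactivates pyruvate dehydrogenase, had an unadjusted p under 0.05, with a log2 fold change of 0.49 (SE 0.23). Complex I subunits had 28 of 36 higher with all mice and 6 of 36 without that mouse, with medians of 0.03 and -0.04, and 0 of them at an unadjusted p under 0.05. Their median was -0.07 with the EMPA mice of cage 68695 alone and 0.13 with those of cage 68692. Of 23 genes of glucose, lactate and ketone use, 2 were lower at that level, the lactate and ketone transporter Slc16a1 (log2 fold change -0.29, SE 0.089) and the pyruvate kinase Pkm (-0.21, SE 0.084), and 3 without R403Q-CD replicate 2, with medians of -0.05 in both cases.

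Genes of wall stress and matrix had lower means on EMPA, by amounts that were much smaller without R403Q-CD replicate 2. Of 17 genes of hypertrophy and stretch, 14 were lower and 6 of these had an unadjusted p under 0.05, with a median log2 fold change of -0.64. Without that mouse 11 were lower, 4 at that level, and the median was -0.11. Nppa, which encodes atrial natriuretic peptide, was at 433, 981, 1099 and 642 CPM on EMPA. On CD the values were 890 to 11080 CPM (median 1161), with 11080 in replicate 2 and 3857 in replicate 5, and the other 5 mice at 890 to 1449. The groups overlapped, and the log2 fold change was -1.88 (SE 0.67, adjusted p = 0.303) and -0.96 without replicate 2. Nppb, the gene of B-type natriuretic peptide, was at 91.0, 123, 153 and 100.6 CPM against 140 to 650.3 CPM (median 184), with log2 fold changes of -1.17 (SE 0.39) and -0.76 without replicate 2.

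Ankrd1, a stretch-responsive titin-binding protein, was at 1065, 1559, 1425 and 977 CPM on EMPA and 1325 to 6720 CPM (median 2312) on CD. It was highest in replicates 2 and 5, and the log2 fold change was -1.27 (SE 0.35, adjusted p = 0.207), or -0.94 without replicate 2. Acta1, skeletal α-actin, which the stressed heart expresses again, had a log2 fold change of -0.81 (SE 0.66) with all mice and 0.12 without replicate 2. Myh7, the β-myosin heavy chain of the fetal heart, went the other way, at 3136, 3513, 3507 and 3342 CPM on EMPA and 1919 to 2985 CPM (median 2638) on CD. It did not overlap, with a log2 fold change of 0.41 (SE 0.10, edgeR adjusted p = 0.157, DESeq2 adjusted p = 0.00978).

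The atrial genes in this list varied over a wide range. Myl7, the atrial light chain, was at 0.147, 12.4, 2.04 and 0.770 CPM on EMPA and 0.264 to 182 CPM (median 11.2) on CD, with a log2 fold change of -3.40 (SE 1.57), or -2.23 without R403Q-CD replicate 2. Of the 5 atrial markers (Myl7, Myl4, Sln, Bmp10 and Dkk3) 4 could be tested, all 4 were lower and 3 had an unadjusted p under 0.05, with a median of -3.21 on the log2 scale. Without replicate 2 all 4 were still lower, 0 of them at that level, and the median was -1.73, with Myl4 at -1.39 instead of -3.02 and Sln at -2.07 instead of -4.26. Their summed CPM was 728 in R403Q-CD replicate 2, 11 to 189 in the other CD mice and 4.89 to 56.5 (median 21.7) in the EMPA mice, whereas Bmp10, a defining atrial gene, was at most 0.112 CPM in any mouse. Nppa is itself abundant in atrial muscle, and the part of atrial tissue in the difference of Nppa was not tested. Epicardial markers (Upk3b, Msln, Wt1 and Upk1b) summed to 8.26 to 57.1 CPM on CD, highest in replicate 5, and 7.75 to 21.2 CPM on EMPA, with 2 of 4 lower at an unadjusted p under 0.05, or 3 of 4 without replicate 2. Wt1 went the other way, with a log2 fold change of 0.08 (SE 0.15). At that level 3 were lower with the EMPA mice of cage 68692 alone, and 0 with those of cage 68695. In the wild type all had higher means on EMPA, with log2 fold changes of 0.53 (Upk3b), 0.86 (Msln), 0.42 (Wt1) and 0.37 (Upk1b).

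**Figure D3:**
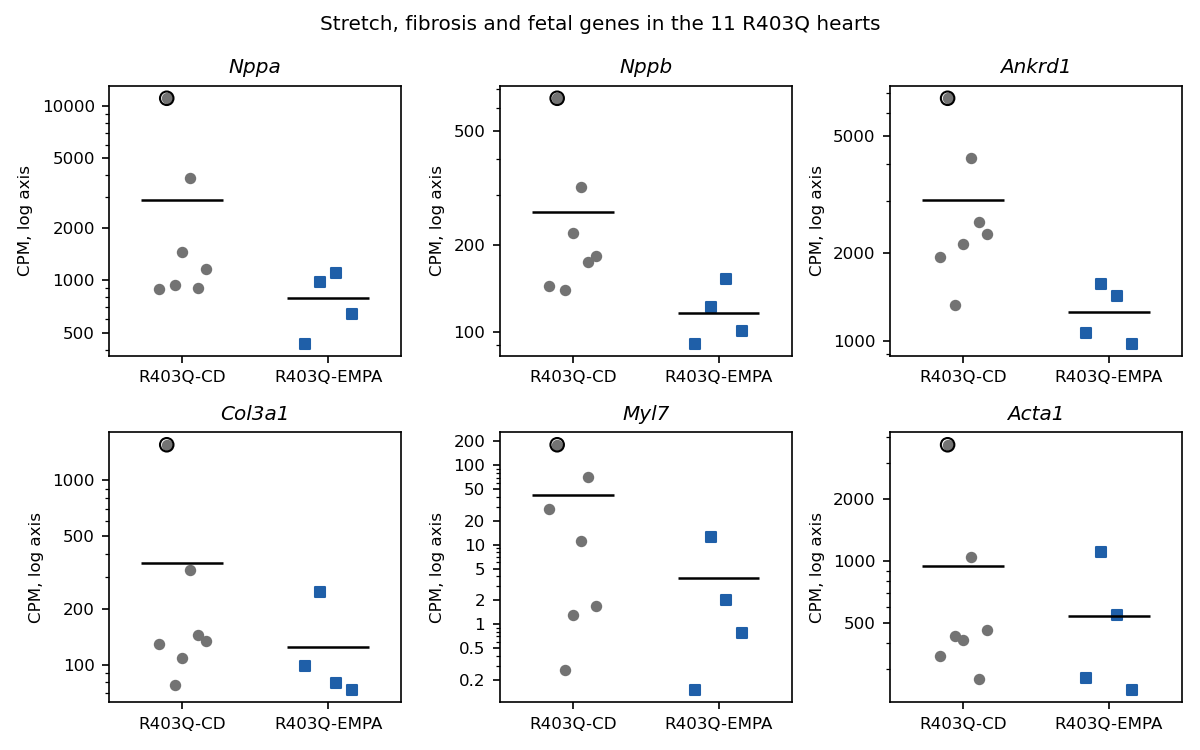
CPM on a log axis of 6 genes of wall stress, matrix and atrial muscle in R403Q-CD and R403Q-EMPA mice. Points are mice, lines are means and R403Q-CD replicate 2 is ringed; it is highest of all mice in Nppa (11080 CPM), Nppb, Ankrd1, Col3a1, Myl7 and Acta1, and the other CD mice lie mostly above the EMPA range in Ankrd1 and Nppb and mostly within it in Col3a1 and Acta1.

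Of 25 listed collagen chains 24 had lower means on EMPA, and their median was -0.70 on the log2 scale, but 0 had an unadjusted p under 0.05, and without R403Q-CD replicate 2 the numbers were 19 of 25 and -0.16. The chain Col22a1, named above among the lower genes, was not in this list. Its groups did not overlap, and its log2 fold change was -0.92 (SE 0.19, adjusted p = 0.118), or -0.86 without that mouse. Col3a1, the chain of type III collagen, was at 98.5, 247, 79.7 and 72.6 CPM on EMPA and 77.4 to 1561 CPM (median 134) on CD, with 1561 CPM in replicate 2 and 327 CPM in replicate 5. The log2 fold change of -1.51 (SE 0.77, adjusted p = 0.433) became -0.30 without replicate 2. Of 40 genes of collagen processing and matrix 37 were lower, 6 at an unadjusted p under 0.05 (Plod2, Thbs4, Cilp, Spp1, Tgfb2 and Ccn2), with a median of -0.32. Without replicate 2, 26 were lower and 14 higher, 3 and 1 of them at that level, and the median was -0.06. Thbs4, Cilp, Spp1 and Ccn2 then had an unadjusted p above 0.05, and of the 15 genes of matrix proteins in this list 0 were at that level instead of 3. Plod2, the lysyl hydroxylase that prepares collagen for cross-linking, had a log2 fold change of -0.38 (SE 0.12) with all mice and -0.29 without that one. Ccn2, connective tissue growth factor, had -0.84 (SE 0.39) and -0.61. The 6 fibroblast markers summed to 3110 to 3370 CPM on EMPA and 2470 to 4390 CPM on CD.

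Contraction genes differed in both directions, and those with higher means included channels of calcium entry and release. Of 21 genes of contraction and calcium handling, 3 were higher (Ryr2, Cacna1c and Slc8a1) and 2 lower (Tcap and Camk2d) at an unadjusted p under 0.05, with a median log2 fold change of -0.02. Without R403Q-CD replicate 2 the numbers were 3 and 4, with Tpm1 (α-tropomyosin) and the calcium channel subunit Cacnb2 also lower at that level, and the median was -0.07. That level was reached by 8 with the EMPA mice of cage 68695 alone (median -0.08), and with those of cage 68692 alone 2 did (median 0.10). Cacna1c, the L-type calcium channel, was at 388, 444, 468 and 546 CPM on EMPA and 205 to 448 CPM (median 321) on CD, which overlapped, and its log2 fold change was 0.45 (SE 0.16, adjusted p = 0.302). Tcap, which caps titin at the Z-disc, was at 1485, 1268, 793 and 1110 CPM against 1368 to 2410 CPM (median 1540), with a log2 fold change of -0.55 (SE 0.17). Camk2d, the cardiac calcium/calmodulin kinase, differed by -0.15 (SE 0.060).

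Of 21 action potential and pacemaker channels 5 were higher and 0 lower at an unadjusted p under 0.05, with a median log2 fold change of 0.20, or 7 higher and 0.12 without R403Q-CD replicate 2. They included the T-type calcium channel Cacna1g and the potassium channels Kcnd3, Kcnk3 and Kcnq1, with log2 fold changes from 0.22 to 0.37. Slc5a2, the target of EMPA, was all but absent from the ventricle, with 1 count in 1 of the 7 CD mice and 0 counts in the EMPA mice, where 0 allows up to 0.0837 to 0.128 CPM. Its relative Slc5a1 (SGLT1) was at 2.54, 1.14, 1.90 and 2.23 CPM on EMPA and 0.480 to 1.57 CPM (median 1.37) on CD, also with overlap, and differed by 0.70 (SE 0.30, adjusted p = 0.351) on the log2 scale. Over the 13 tested genes of sodium handling 2 were higher and 1 lower at an unadjusted p under 0.05, or 2 and 0 without R403Q-CD replicate 2, with medians of 0.06 and 0.04. The higher ones were Slc5a1 and the sodium channel gene Scn4a (0.89, SE 0.35).

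Signalling genes with a common direction included the insulin pathway. Of 10 insulin signalling genes 9 were higher, 4 at an unadjusted p under 0.05 (Insr, Irs1, Akt2 and Foxo1). Irs1, the adaptor of the insulin receptor, was at 86.1 ± 18.4 CPM (SD, n = 4) on EMPA and 54.6 ± 16.4 CPM (SD, n = 7) on CD, and the log2 fold change was 0.66 (SE 0.19, adjusted p = 0.229). Igf2, an insulin-like growth factor, had a log2 fold change of 0.68 (SE 0.22) without overlap, and its binding protein Igfbp3 one of -0.64 (SE 0.16, DESeq2 adjusted p = 0.0162). Among the mTOR genes the inhibitors Deptor (0.29, SE 0.098) and Tsc1 (0.32, SE 0.12) were higher at an unadjusted p under 0.05. The kinase Rps6kb1 (-0.11) and the translation repressor Eif4ebp1 (-0.15) were lower at that level without R403Q-CD replicate 2. All 27 insulin and mTOR genes together had 7 higher and 2 lower at that level and a median of 0.10, or 7, 3 and 0.08 without that mouse. With the EMPA mice of cage 68695 and of cage 68692 alone, 9 and 2 of them reached it.

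Glucocorticoid-responsive genes had 7 of 14 members lower and 0 higher at an unadjusted p under 0.05, and their median was -0.33 on the log2 scale, with 7 lower, 0 higher and -0.29 without R403Q-CD replicate 2. Tsc22d3, the glucocorticoid-induced leucine zipper, was at 270, 241, 251 and 196 CPM on EMPA and 256 to 374 CPM (median 308) on CD, and its log2 fold change was -0.41 (SE 0.12, adjusted p = 0.23). The others were Fkbp5, a co-chaperone of the receptor (-0.45, SE 0.19), the metallothioneins Mt1 (-0.33, SE 0.13) and Mt2 (-0.92, SE 0.35, or -0.51 without R403Q-CD replicate 2), Cebpd, Errfi1 and Nfkbia. Mt1 and Mt2 resemble each other, and their division is uncertain. Immediate-early genes had 4 of 21 lower and 1 higher at that level, with a median of -0.35, or 3 lower and -0.21 without R403Q-CD replicate 2. All 3 NR4A receptors had lower means, 2 of them at that level, and Nr4a1 was at 10.2, 17.7, 16.8 and 13.0 CPM on EMPA and 14.9 to 84.6 CPM (median 34.2) on CD. Its log2 fold change was -1.32 (SE 0.42), and Myc, the growth-promoting factor, had one of 0.40 (SE 0.16).

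The type I interferon response was lower, with 22 of 23 genes lower and 12 of them at an unadjusted p under 0.05, at a median log2 fold change of -0.53. Without R403Q-CD replicate 2, which had the highest values, 21 of 23 were lower, 5 at that level, and the median was -0.26. Ifit2, an antiviral effector, was at 21.1, 26.8, 19.0 and 23.3 CPM on EMPA and 22.2 to 43.3 CPM (median 27.9) on CD, with overlap, and its log2 fold change was -0.44 (SE 0.17). Ifi44, another target, had the lowest of the list at -1.37 (SE 0.56), or -0.56 without that mouse. Of the 23 genes 8 had an unadjusted p under 0.05 with the EMPA mice of cage 68695 alone (median -0.69), and with those of cage 68692 alone 0 did (median -0.32). The direction was opposite to that of Gbp10 and Gbp6, which were not in the list.

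Proteasome subunits were slightly lower in 29 of 31 genes, 6 of them at an unadjusted p under 0.05, with a median log2 fold change of -0.08 and -0.10 without R403Q-CD replicate 2. The 6 comprised the core subunit Psma5 and the cap subunits Psmc1, Psmc4, Psmd8, Psmd13 and Psmd14, with log2 fold changes from -0.13 to -0.23. With the EMPA mice of cage 68695 alone 15 subunits reached that level, and with those of cage 68692 alone 0. Of 24 cell cycle genes 22 were lower, 2 at that level (Cdk1, the mitotic kinase, with -1.21, SE 0.47, and Ccnd2, a cyclin, with -0.22, SE 0.10), at levels near 1 CPM for Cdk1. The cell cycle median was -0.30, or -0.18 with 1 gene at that level without R403Q-CD replicate 2, and 7 genes and 0 genes reached it with the EMPA mice of cage 68695 and of cage 68692 alone. Of 14 genes of the integrated stress response 10 were lower, 2 at that level (Mthfd2 and Cebpb), and the median was -0.18, while without R403Q-CD replicate 2 only 1 was at that level and the median was -0.07. Antioxidant and heat shock genes had 2 higher (Hmox1 and Gclm) and 2 lower (Nqo1 and Hspa1a) of 23, and without R403Q-CD replicate 2 none was lower at that level (0 of 23). With the EMPA mice of cage 68695 and of cage 68692 alone 8 and 1 of them reached it. Hmox1, haem oxygenase, was at 65.9 ± 19.3 CPM (SD, n = 4) on EMPA and 42.3 ± 6 CPM (SD, n = 7) on CD, with a log2 fold change of 0.64 (SE 0.20).

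**Figure D4:**
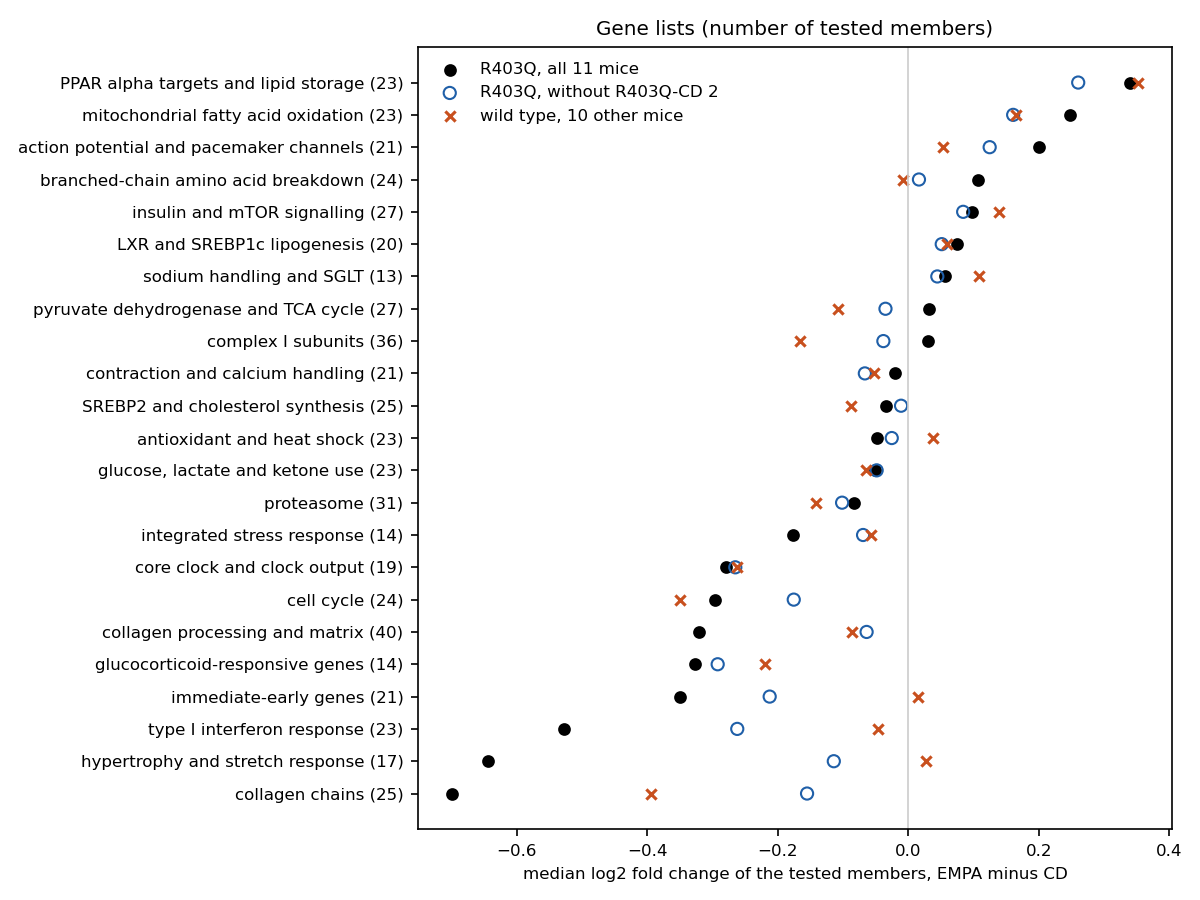
Median log2 fold change of EMPA against CD in the 23 gene lists, with all 11 R403Q mice, without R403Q-CD replicate 2 and in the 10 wild-type mice. PPARα targets and fatty acid oxidation lie above 0 and the clock and glucocorticoid lists below 0 in all 3 sets of mice, whereas the collagen median is -0.70 with all R403Q mice and -0.16 without replicate 2.

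Markers of other cells also differed by diet. All 5 red blood cell markers (Hbb-bs, Hbb-bt, Hba-a1, Hba-a2 and Alas2) were higher on EMPA, all 5 at an unadjusted p under 0.05, with a summed CPM of 1220 to 2680 (median 1840) against 884 to 1730 (median 1210) and a median log2 fold change of 0.63. Without R403Q-CD replicate 2, 4 of them were at that level (median 0.56), and with the EMPA mice of cage 68692 and of cage 68695 alone 5 (median 0.89) and 1 (median 0.31). Globin genes of a pair share much sequence, and Alas2, which has no such copy, had a log2 fold change of 0.66 (SE 0.19). The 3 neutrophil markers (S100a8, S100a9 and Csf3r) had higher means, 2 at that level or 1 without R403Q-CD replicate 2, with sums of 5.83 to 28.9 CPM against 3.84 to 10.2. In S100a8 and S100a9 only the EMPA mice of cage 68695 lay above the CD mice. S100a8 was at 5.07 and 9.63 CPM in that cage, 1.84 and 1.06 CPM in cage 68692 and 0.453 to 1.9 CPM on CD, and Csf3r differed by 0.08 (SE 0.24) on the log2 scale. The 5 smooth muscle markers (Acta2, Tagln, Myh11, Cnn1 and Smtn) were lower, 3 at that level with and without R403Q-CD replicate 2, with sums of 304 to 538 CPM against 449 to 995. With the EMPA mice of cage 68695 alone 2 were at that level, and with those of cage 68692 alone 0 (medians -1.27 and -0.71). Tagln and Myh11 were highest in R403Q-CD replicate 5, at 177.9 and 238.5 CPM. Among 6 endothelial markers 3 had an unadjusted p under 0.05, with Kdr, the VEGF receptor, at a log2 fold change of 0.40 (SE 0.10), Tek at 0.19 (SE 0.073) and Emcn at -0.29 (SE 0.12), which was not at that level without R403Q-CD replicate 2 (-0.22). The part of these cells in the differences above was not tested.

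The wild-type mice on the same diets were other animals, and 2 of the 3 cages that held WT-EMPA mice also held R403Q-EMPA mice. The CD mice of both genotypes came from the same 4 cages, so the genotypes are not independent of each other by cage. In a fit of all 4 groups (17309 genes), WT-EMPA against WT-CD passed 5 genes in edgeR (among them Srebf1, Ttc7, Man1c1 and Btnl9) and 90 in DESeq2, and 1907 genes (11%) had an unadjusted p under 0.05. The difference between the diet effects of the genotypes, tested as an interaction, passed 0 genes in edgeR (smallest adjusted p = 0.537, with 567 genes at an unadjusted p under 0.05) and 0 in DESeq2. Of the 142 genes that passed DESeq2 in R403Q, 133 (93.7%) had the same sign in the wild type, and 75 (52.8%) also an unadjusted p under 0.05. Over all 17025 genes these shares were 65.1% and 9.56%.

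Srebf1 was at 30.2 ± 1.84 CPM (SD, n = 5) in WT-CD and 47.4 ± 8.47 CPM (SD, n = 5) in WT-EMPA, a difference of 0.65 (SE 0.098, adjusted p = 0.0236) on the log2 scale. Acot1 (1.45, SE 0.34) and Angptl4 (1.76, SE 0.38) differed in the wild type by amounts close to those in R403Q, 1.51 and 1.37, as did Arntl (1.78 against 1.61), Ciart (-1.49 against -1.38) and Scd1 (-1.78 against -1.44). Of the 23 PPARα and lipid storage genes 13 were higher and 0 lower at an unadjusted p under 0.05 in the wild type, and the medians of both genotypes were 0.35 and 0.34. Of the 20 genes with the smallest p in R403Q, 19 had the same sign in the wild type, and 12 of these an unadjusted p under 0.05. For 9 of the 20 the interaction had an unadjusted p under 0.05 in edgeR, where all 17309 genes gave 567. Among them was Tmem47, with log2 fold changes of 0.03 in the wild type and 0.46 in R403Q. The 20 genes were chosen by their p in R403Q, and the same R403Q values enter the interaction.

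The means of Nppa and Nr4a3 differed in the opposite direction in the wild type. Nppa was at 434 ± 135 CPM (SD, n = 5) in WT-CD and 582 ± 168 CPM (SD, n = 5) in WT-EMPA, a log2 fold change of 0.42 (SE 0.57), and Nr4a3 had one of 0.56 (SE 0.33) where R403Q had -1.45. The smallest adjusted p of the interaction was that given above, so neither gene passed. For Nr4a3, chosen by its small p in R403Q, the interaction in edgeR had an unadjusted p of 0.00045 and an adjusted p of 0.999. The median of the hypertrophy and stretch list was 0.03 in the wild type, where R403Q had -0.64 and, without R403Q-CD replicate 2, -0.11. For the type I interferon list it was -0.05 against -0.53 and -0.26, and for the immediate-early genes 0.02 against -0.35 and -0.21. Differences between list medians were not tested. The clock median was -0.26 in the wild type against -0.28 and -0.27 in R403Q, the glucocorticoid median -0.22 against -0.33 and -0.29, and the proteasome median -0.14 against -0.08 and -0.10. Of the 31 proteasome subunits 29 were lower in the wild type, 14 of them at an unadjusted p under 0.05.

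**Figure D5:**
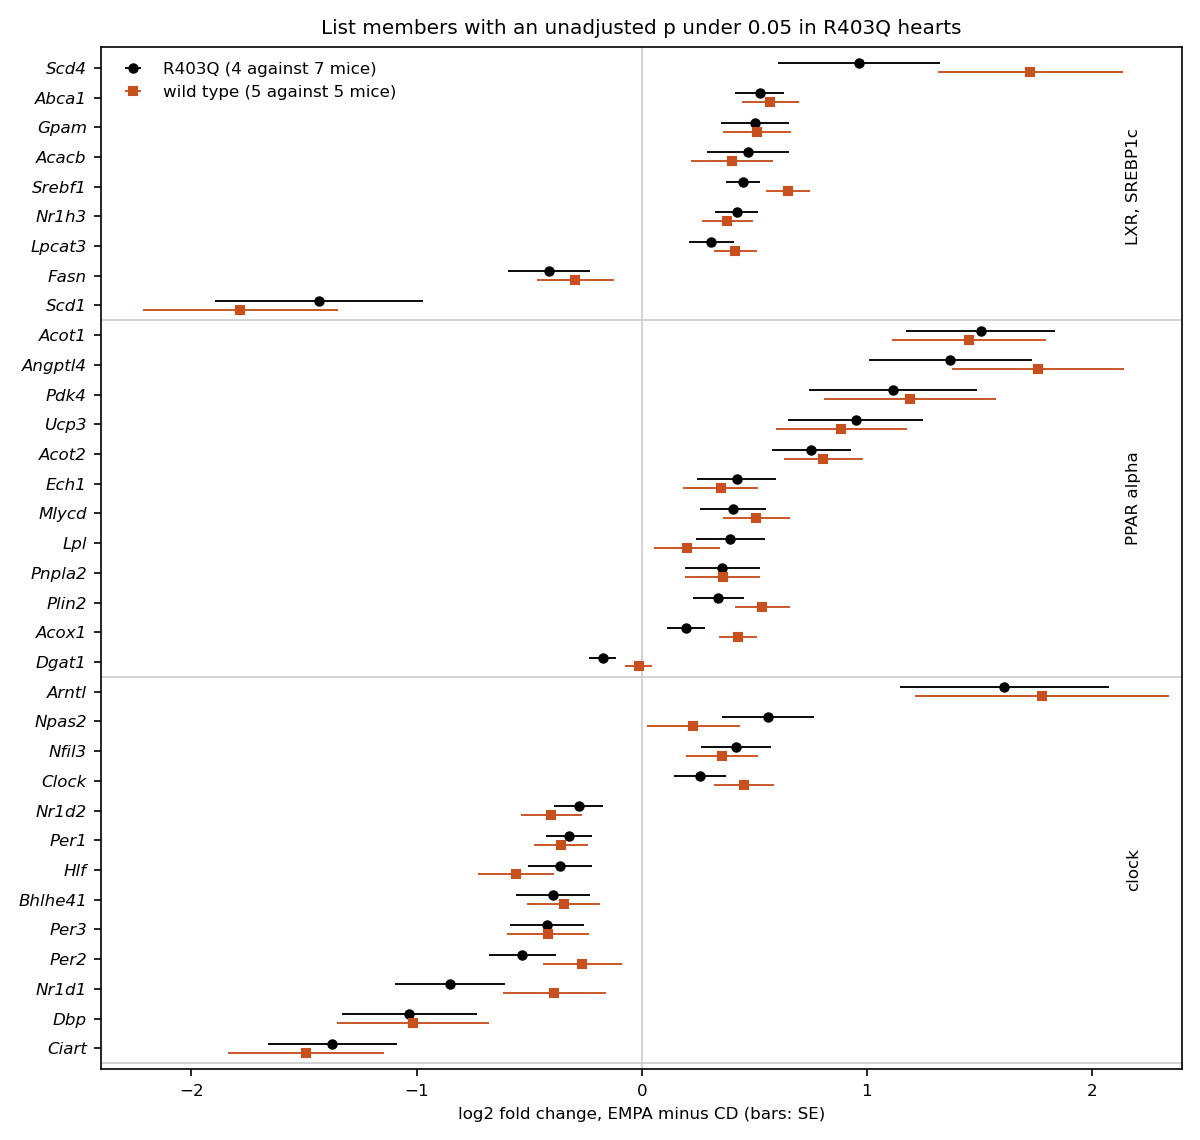
Log2 fold change of EMPA against CD (horizontal axis) with its SE as bars, in R403Q (circles) and wild-type mice (squares), for members of the LXR, PPARα and clock lists with an unadjusted p under 0.05 in R403Q. Both symbols of a gene lie on the same side of 0, as for Acot1 (1.51 and 1.45) and Scd1 (-1.44 and -1.78), and the wild-type value of Dgat1 is close to 0 (-0.01).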

How the data were processed

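Left ventricular RNA of 21 mice was sequenced, 1 sample for each mouse, and the 11 R403Q mice were compared by diet. The authors aligned reads and counted them per gene, and per the submitters' processing notes used STAR 2.6.0c, Subread 1.6.2 (featureCounts), FastQC 0.11.7 and DESeq2 1.32.0 with the mouse genome mm10. Gene positions are those of the GENCODE annotation of the same build (GRCm38). The deposited count table holds raw counts of 55450 genes, 32463 of them with a count, and 55104 were matched to a symbol. The authors also deposited variance-stabilized log2 values, used here only for an alternative test.

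Counts were tested with edgeR 4.0.16 (R 4.3.3) by the quasi-likelihood test with TMM scaling, after a filter (filterByExpr, minimum count 10), in a fit of WT-CD, R403Q-CD and R403Q-EMPA, with Benjamini-Hochberg adjustment and a threshold of 0.05. Adjusted p-values are from edgeR unless DESeq2 (1.42.0) is named. CPM are scaled counts, not divided by gene length, so levels are not compared between genes. Wild-type values and interactions came from a fit of all 4 groups. Limma 3.58.1, Python 3.11.15, numpy 2.4.6 and pandas 2.3.3 were also used. The edgeR test was checked on simulated counts of independent mice, without a cage effect or an outlying mouse, so the check does not cover these.

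The genes described were the 10 higher and 10 lower with the smallest p, up to 5 each way with the largest difference among genes without overlap, the 3 members of each list with the smallest p, and fixed cardiac genes, 102 in all. Other list members, and the remaining genes named, were chosen after their values were seen. The 23 lists hold 539 members, of which 5 could not be tested. A few genes that the rule named are not reported here. The comparison and the lists were chosen with earlier results of these data known. Depth limits single values as given in the report, and counting error is only part of the error. The alternatives were another test, other scalings, no filter, other sets of mice and the cage. P-values of the main test measure the spread between mice, taken as independent, and not the spread between cages, although no cage held both diets.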

Additional observations from a re-analysis of the deposited data

Results flagged for a closer look

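Within a group, 21 values lay far from those of the other mice by Dixon's test of the extreme value, among the CPM of the genes described. Such a test flags about 1 in 20 groups by chance. The genes described numbered 102, with a group of mice for each diet, so chance alone would give part of the 21. Which of the 21 these are was not tested. The values of a single mouse are also not independent of each other across genes. R403Q-CD replicate 2 accounted for 13 of the 21. It was the highest R403Q-CD mouse for Nppa (11100 CPM), Acta1 (3670 CPM), Col3a1 (1560 CPM), Col1a1 (686 CPM), Nppb (650 CPM), Mt2 (348 CPM), Tgfb2 (66.9 CPM), Pgk1 (62.6 CPM), Irf9 (32.3 CPM), Msmo1 (14.4 CPM), Hspa1a (9.85 CPM) and Sqle (3.21 CPM), and the lowest for Cpt1b (6.03 CPM).

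Among the other R403Q-CD mice, replicate 4 was apart for Ndufa11 (394 CPM), replicate 5 for Gdf10 (7.65 CPM) and for its single count of Slc5a2 (0.0302 CPM), and replicate 6 for Nr4a1 (84.6 CPM). Among the R403Q-EMPA mice, replicate 1 was apart for Nr4a3 (4.12 CPM) and replicate 4 for Klf15 (128 CPM). R403Q-EMPA replicate 2 was apart for Col3a1 (247 CPM) and Arrdc2 (8.23 CPM), although the 4 values of Arrdc2 were close together.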

How the results depend on the processing

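The number of genes past an adjusted p of 0.05 was 0 in edgeR, and also 0 with other scalings, without a filter, with limma on the deposited log2 values, with the R403Q mice alone, with cage as a random effect and with counts summed per cage. It was 142 with DESeq2, 2 in the fit of all 4 groups (Tmem64 and Gbp10, both at an adjusted p of 0.0187), 2 without the EMPA mice of cage 68692 (Srebf1 and Man1c1, 0.0333) and 0 to 2 when 1 mouse was left out, with 2 without R403Q-CD replicate 2 (Ctsc 0.0222 and Slc17a7 0.00644) and 1 without replicate 6 (Tmem64 0.0202). The number at an unadjusted p under 0.05, 2123, was 523 with counts summed per cage, 909 without the EMPA mice of cage 68695, and 1386 to 2670 when 1 mouse was left out, with 1386 without R403Q-EMPA replicate 4 and 1414 without replicate 3. The log2 fold change changed sign for Ndufa11 (0.011) and Myh6 (-0.016) without the EMPA mice of cage 68695, and for Klf15 (0.067) without those of cage 68692. When 1 mouse was left out it ranged from -0.029 to 0.14 for Myh6, -1.44 to 0.12 for Acta1 and -0.15 to 0.023 for Klf15. The median of the collagen list was -0.16 and that of the hypertrophy list -0.11 without R403Q-CD replicate 2, and that of the proteasome list was -0.19 without the EMPA mice of cage 68692. The cause of these changes was not tested, and the sums per cage also hold fewer samples than the main fit. Of the other alternative values of single genes, 2048 kept their direction and side of the threshold, and 34 kept their direction and passed it, 29 of them with DESeq2, 2 in the fit of all 4 groups, 2 without the EMPA mice of cage 68692 and 1 without R403Q-CD replicate 6. No paired analysis was possible because each mouse belonged to 1 group and the replicate numbers only name the mice, since the labels link no mice of different diets.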

Other observations

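The summed markers of other cell types overlapped between the diets in the R403Q hearts. All 6 macrophage markers had higher means on EMPA, 0 of them at an unadjusted p under 0.05 (1 without R403Q-CD replicate 2), with sums of 279 to 378 CPM on EMPA and 265 to 429 CPM on CD. Their median log2 fold change was 0.26 with the EMPA mice of cage 68692 alone and -0.12 with those of cage 68695. The 4 pericyte markers summed to 1130 to 1290 CPM on EMPA and 842 to 1370 CPM on CD, with 0 at that level. Lymphocyte markers, of which 2 of 5 could be tested, summed to 1.07 to 1.8 CPM on EMPA and 0.668 to 1.67 CPM on CD. White adipocyte markers summed to 4.88 to 19.9 CPM on EMPA and 2.26 to 11.7 CPM on CD, and brown adipocyte markers to 601 to 819 CPM and 404 to 951 CPM, while Ucp1, the defining brown fat gene, was at most 0.0307 CPM. Schwann cell markers summed to 4.19 to 7.96 CPM on EMPA and 3.96 to 10.5 CPM on CD. Skeletal muscle markers summed to 237 to 1110 CPM on EMPA and 268 to 3680 CPM on CD, the highest in R403Q-CD replicate 2, and where Acta1 alone was at 3674 CPM and Myh1 and Myh4, which define skeletal fibres, were near 0.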
